A study of Mus musculus with 435 samples.

Results

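Genes of collagens, laminins, matrix metalloproteinases (MMPs), ADAMTS proteases and their tissue inhibitors (TIMPs) were followed in the livers of 435 obese, leptin receptor deficient mice. They were chosen by symbol (Col, Lama, Lamb, Lamc, Mmp, Timp and Adamts followed by their chain or member number), with Col4a1 and Mmp2 left out, and 60 of the 13379 genes in the table met that choice. These were 6 fibrillar, 3 basement membrane, 7 beaded filament or short chain, 6 fibril-associated and 4 transmembrane, multiplexin or other collagen chains. With them came 7 laminin chains, 7 secreted and 4 membrane-type MMPs, 3 TIMPs, 8 ADAMTS proteases and 5 ADAMTS-like proteins. Each gene was read by 1 probe set of an Affymetrix array, a glass chip on which labelled RNA binds to short DNA probes. Values are on a log2 scale, so a difference of 1 is a doubling, and levels of different genes are not compared because each probe set binds with its own strength.

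The mice were an F2 intercross: DBA/2J females and C57BL/6 males with 1 copy of the db mutation gave db/+ offspring, whose own db/db offspring were studied. Every mouse analysed was db/db and ate chow, so the groups differ in sex and age and hold no lean animals. Livers came from 118 females and 101 males killed at 5 weeks, and from 110 females and 106 males killed at 12 weeks, with 1 array per mouse. Body weight averaged 24.9 ± 4.31 g (SD, n = 117) in 5-week females, 26.3 ± 4.19 g (n = 101) in 5-week males, 51.9 ± 4.99 g (n = 110) in 12-week females and 52.1 ± 5.45 g (n = 106) in 12-week males. Age and body weight therefore moved together between the groups. Each F2 mouse carries its own mix of both parental genomes, the sources used here name no litters, and mice were treated as independent.

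Collagens are triple helices of 3 chains. Fibrillar collagens build the load-bearing fibres of scars and portal tracts, collagen IV and laminins form basement membranes, and collagen VI makes beaded filaments that tie cells to fibres. MMPs and ADAMTS proteases cut matrix proteins, TIMPs block those proteases, and in liver much of this matrix is made by stellate cells, portal fibroblasts and endothelial cells rather than hepatocytes. In whole liver, fewer cells of a type and less RNA per cell cannot be told apart.

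Array quality was alike in most mice. Hepatocyte markers averaged between 12.6 and 13.2 in every mouse, as in liver tissue. X-linked genes lay nearer to the other sex in 8 arrays, and 2 arrays of 5-week females stood apart by skeletal muscle markers (averages of 9.80 and 9.20, against 5.64 in the next highest array). Counts of called genes without these 8 or these 2 arrays stayed within 1.5 times of those given. The array names carry a code with 6 values, called batch here; the sources used here do not explain it.

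At 12 weeks more of these genes were lower than at 5 weeks than were higher. A gene was called where its adjusted p in limma was under 0.05. In females 26 of 60 fell and 9 rose, where 24.2% of all genes fell and 22.1% rose. In males 27 fell and 4 rose, against 24% and 22.3% of all genes. In both sexes 24 fell and 4 rose, against 17.2% and 15.5% of all genes. Large differences leaned further to one side: with at least a 1.25-fold change, 8 fell and 1 rose in females (2.4% and 1.89% of all genes) and 8 fell and 1 rose in males (2.22% and 2.24%). The median log2 difference over the 60 genes was -0.034 in females and -0.038 in males, beside 0.003 and -0.004 over all genes, so the typical gene among them barely moved. The 8 that fell were the same in both sexes: Col1a1, Col4a2, Col5a1, Col6a1, Col6a2, Col6a3, Lama2 and Lamc1.

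**Figure D1:**
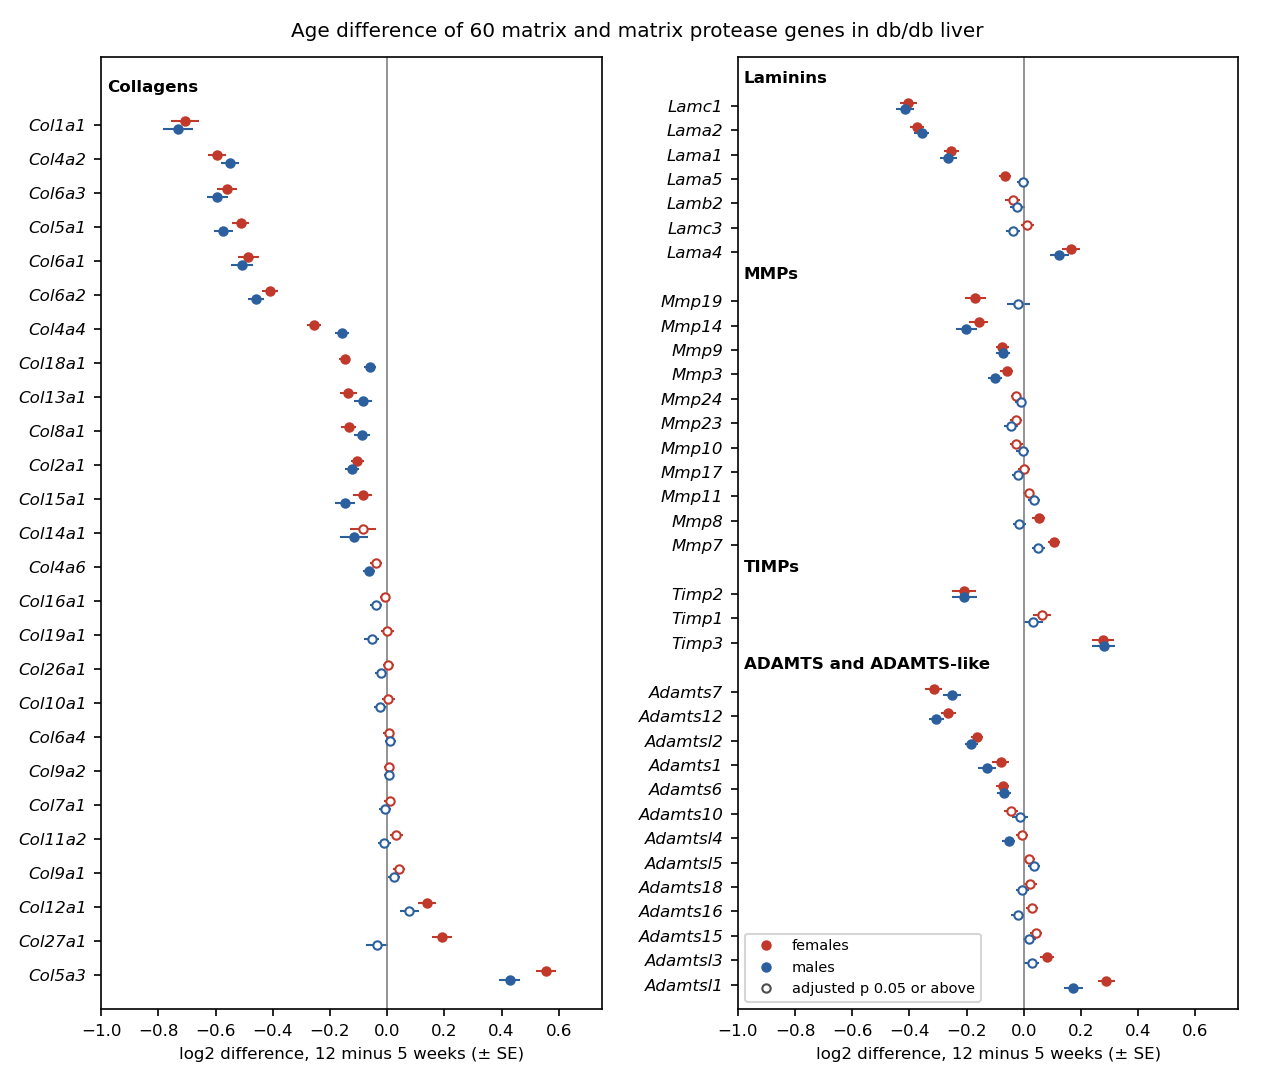
Log2 difference between 12 and 5 weeks for all 60 genes, in females (red) and males (blue), with horizontal bars for ± 1 SE; filled points had an adjusted p under 0.05 and open points did not. Collagen chains are on the left, and laminins, MMPs, TIMPs and ADAMTS genes on the right; Col1a1 lies lowest at -0.71 and -0.73, and Col5a3 highest at 0.55 and 0.43.

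Among the 6 fibrillar collagen chains measured, of 11 listed, Col1a1 fell most. Col1a2, Col3a1 and Col5a2 were not among those measured. It encodes the main chain of collagen I, the bulk collagen of liver scars. In females Col1a1 ran from 5.98 to 8.36 with a median of 6.85 at 5 weeks, and from 5.39 to 7.62 with a median of 6.11 at 12 weeks. In males it ran from 6.09 to 7.94 with a median of 6.78 at 5 weeks, and from 5.18 to 7.09 with a median of 6.07 at 12 weeks. The ranges overlapped, yet 104 of 110 older females and 101 of 106 older males lay below the 5-week median of their sex. The fall was -0.71 ± 0.048 (SE) in females (1.63-fold, adjusted p 9.71e-38) and -0.73 ± 0.051 in males (1.66-fold, adjusted p 4.97e-36). Within each of the 4 large batches alone it lay between -0.91 and -0.64 in females and between -0.85 and -0.61 in males.

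The measured chains of collagen V, which starts and limits collagen I fibrils, were Col5a1 and Col5a3, and they went opposite ways. Col5a1 ran from 6.27 to 7.28 (median 6.72) in 5-week females and from 5.57 to 6.69 (median 6.22) in 12-week females. In males its range was 5.89 to 7.65 (median 6.62) at 5 weeks and 5.32 to 6.55 (median 6.06) at 12 weeks. Every one of the 110 older females and of the 106 older males lay below the younger median. The fall was -0.51 ± 0.031 in females (1.43-fold, adjusted p 5.78e-45) and -0.57 ± 0.033 in males (1.49-fold, adjusted p 1.07e-48). Col5a3, the α3 chain, was the member that rose most: from a median of 7.70 (6.98 to 8.19) to 8.18 (7.67 to 9.02) in females, and in males from 7.86 (6.91 to 8.33) to 8.25 (7.55 to 8.96). Only 2 of 110 older females and 15 of 106 older males lay below the younger median of Col5a3, and 54 and 41 exceeded every younger mouse of their sex. The rise was 0.55 ± 0.036 in females (1.47-fold, adjusted p 1.53e-40) and 0.43 ± 0.038 in males (1.35-fold, adjusted p 6.37e-24), with 0.46 to 0.64 and 0.35 to 0.55 in the batches taken alone. Of the other fibrillar chains, Col2a1, best known from cartilage, fell by 0.10 in females and 0.12 in males. Col11a2, which was dim, differed by 0.03 and -0.01 and was not called.

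Col27a1, a fibrillar chain best known from cartilage, was the clearest case of an age difference that depended on sex. Its median moved from 6.49 (5.41 to 7.19) to 6.71 (6.03 to 7.68) in females, and in males from 6.65 (6.01 to 7.39) to 6.62 (6.04 to 7.77). It rose by 0.19 ± 0.036 in females (adjusted p 9.74e-07), while males differed by -0.04 ± 0.038 (adjusted p 0.46). The age difference of males minus that of females was -0.23 ± 0.051 (adjusted p 0.000663), and it lay between -0.27 and -0.15 in every batch taken alone.

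Beaded filament genes fell together. Col6a1, Col6a2 and Col6a3 encode the 3 classical chains of collagen VI. Col6a3 went from a median of 7.65 (7.13 to 8.32) to 7.06 (6.59 to 8.05) in females, and in males from 7.61 (7.00 to 8.48) to 7.02 (6.28 to 7.59). Col6a1 went from 6.94 (6.28 to 7.96) to 6.47 (5.52 to 7.15) in females, and in males from 6.95 (6.21 to 7.71) to 6.41 (5.66 to 7.38). Col6a2 went from 7.97 (7.53 to 8.94) to 7.53 (6.95 to 8.15) in females, and in males from 7.97 (7.37 to 8.63) to 7.49 (6.89 to 8.03). For each of the 3 chains the ranges of the ages overlapped, and between 95.5% and 100% of older mice lay below the younger median of their sex. The falls were -0.56 ± 0.034 and -0.59 ± 0.036 for Col6a3, -0.49 ± 0.037 and -0.51 ± 0.039 for Col6a1, and -0.41 ± 0.028 and -0.46 ± 0.030 for Col6a2, in females and males (largest adjusted p 5.62e-31). Col6a4, a later-found collagen VI chain, differed by 0.01 and 0.01 and was not called in either sex, and it was dim. Of the 7 genes in this class 4 fell in each sex and 0 rose. Over all genes 24.2% fell and 22.1% rose in females, and 24% and 22.3% in males.

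Promoters of Col5a1, Col5a3, Col6a1, Col6a2 and Col6a3 are shown because these genes moved together or apart. Each line gives the 250 bases before the most upstream start in RefSeq's annotation of GRCm38.p6, 5′ to 3′ on the gene's strand; capitals mark a CCAAT box (CCAAT) or a GC box (GGGCGG) on either strand. The windows are chr2:27886175-27886424 (plus strand) for Col5a1, chr9:20815068-20815317 (minus) for Col5a3, chr10:76726045-76726294 (minus) for Col6a1, chr10:76623631-76623880 (minus) for Col6a2 and chr1:90843972-90844221 (minus) for Col6a3.
Col5a1: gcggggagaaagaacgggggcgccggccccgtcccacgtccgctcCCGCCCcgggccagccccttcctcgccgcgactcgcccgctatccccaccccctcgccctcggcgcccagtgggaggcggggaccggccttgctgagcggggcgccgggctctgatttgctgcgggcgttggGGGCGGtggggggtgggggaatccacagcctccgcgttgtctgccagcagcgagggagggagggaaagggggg
Col5a3: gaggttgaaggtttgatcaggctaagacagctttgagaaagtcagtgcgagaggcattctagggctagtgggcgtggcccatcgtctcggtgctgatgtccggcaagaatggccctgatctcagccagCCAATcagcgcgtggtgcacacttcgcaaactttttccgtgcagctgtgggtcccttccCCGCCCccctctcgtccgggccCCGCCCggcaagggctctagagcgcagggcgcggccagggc
Col6a1: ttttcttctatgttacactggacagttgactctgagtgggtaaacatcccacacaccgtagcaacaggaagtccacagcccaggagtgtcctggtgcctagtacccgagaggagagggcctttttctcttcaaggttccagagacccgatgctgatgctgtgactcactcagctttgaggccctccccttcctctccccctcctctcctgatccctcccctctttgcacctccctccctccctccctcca
Col6a2: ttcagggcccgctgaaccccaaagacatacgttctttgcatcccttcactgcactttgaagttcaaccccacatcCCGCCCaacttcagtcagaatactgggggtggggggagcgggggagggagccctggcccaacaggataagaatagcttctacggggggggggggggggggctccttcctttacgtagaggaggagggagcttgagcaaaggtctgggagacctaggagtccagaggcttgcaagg
Col6a3: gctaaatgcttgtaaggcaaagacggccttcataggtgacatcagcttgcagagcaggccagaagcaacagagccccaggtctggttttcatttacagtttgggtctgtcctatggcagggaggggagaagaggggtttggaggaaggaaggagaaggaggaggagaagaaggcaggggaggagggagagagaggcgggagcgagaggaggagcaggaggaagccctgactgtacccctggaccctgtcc
The search also covered the TATA box (TATAAA) on both strands, which is in none of these 5 windows. Col5a1 held 2 GC boxes, Col5a3 held 2 GC boxes and 1 CCAAT box, and Col6a2 held 1 GC box, while Col6a1 and Col6a3 held 0 matches. The GC content was 76.4% for Col5a1 and 62.8% for Col5a3, and 56%, 59.2% and 57.2% for Col6a1, Col6a2 and Col6a3. Of the 60 genes, 42 had a promoter in the RefSeq table. A GC box stood in 61.9% of those 42 and in 33% of 27025 promoters, a CCAAT box in 23.8% and 34.5%, and a TATA box in 19% and 13%. The median GC content was 60.6% over the 42 and 52% over all. The 27025 promoters were those of every gene in that table, not only of the 13379 genes measured, so the comparison set is wider than elsewhere. A match describes the letters of the window only.

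**Figure D2:**
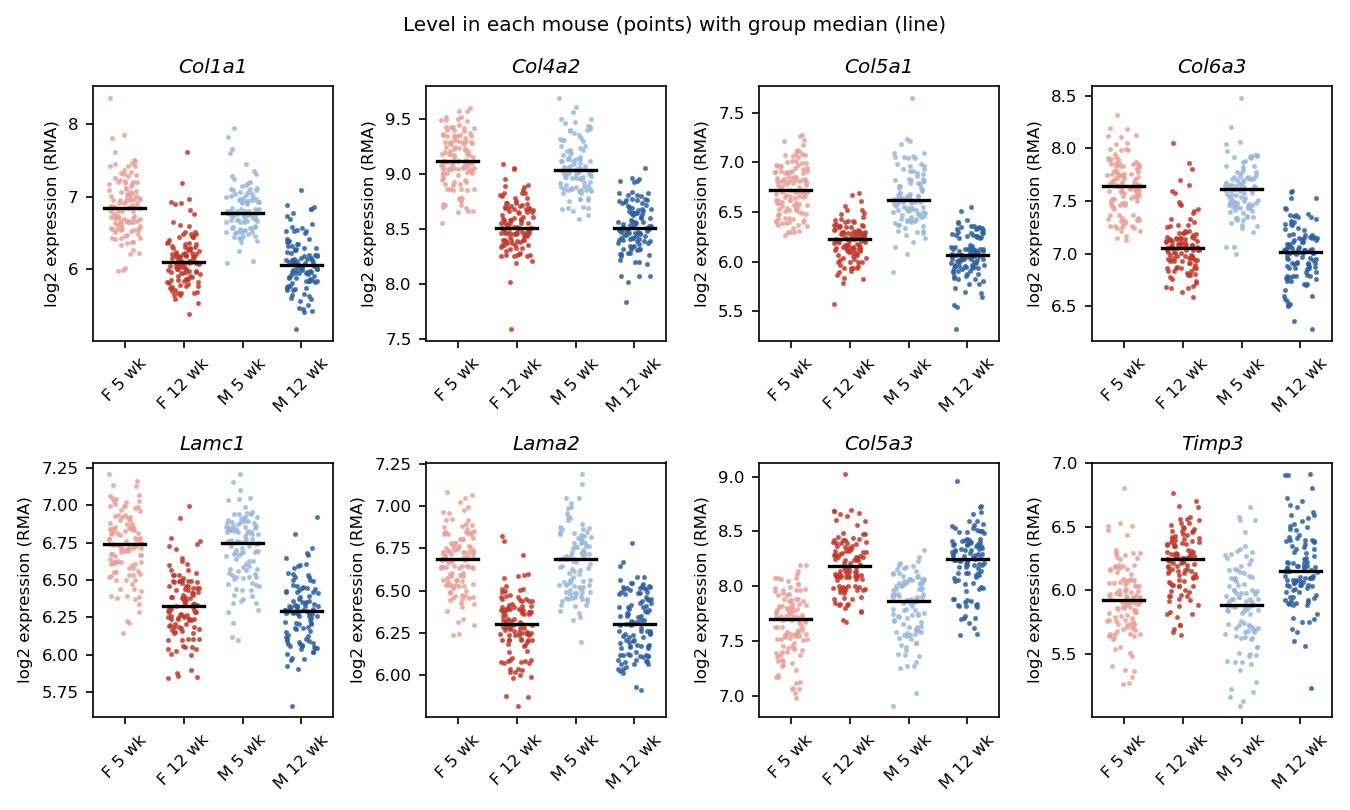
Log2 expression (RMA) of 8 genes in every mouse, as points with the group median as a black line, for females (F, red) and males (M, blue) at 5 weeks (light) and 12 weeks (dark). Col1a1, Col4a2, Col5a1, Col6a3, Lamc1 and Lama2 sit lower and Col5a3 and Timp3 higher at 12 weeks, with overlapping ranges; Col5a1 medians went from 6.72 to 6.22 in females.

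Of the 3 basement membrane collagen chains 2 fell in females and 3 in males, where 24.2% and 24% of all genes fell. Col4a2, the α2 chain of the collagen IV network found in all basement membranes, ran from 8.55 to 9.61 (median 9.12) in 5-week females and from 7.59 to 9.09 (median 8.51) in 12-week females. In males it ran from 8.59 to 9.70 (median 9.04) and from 7.83 to 9.06 (median 8.51). Of the older mice, 110 of 110 females and 105 of 106 males lay below the younger median. The fall was -0.60 ± 0.031 in females (1.51-fold, adjusted p 1.35e-57) and -0.55 ± 0.033 in males (1.46-fold, adjusted p 1.46e-46). Group explained 61.4% of the variance of Col4a2 over mice and batch a further 0.406%. Col4a4, a chain of a network best known from kidney, fell by 0.26 ± 0.024 in females and 0.16 ± 0.025 in males. Those falls differed by 0.10 ± 0.034 (adjusted p 0.0418), and by 0.05 to 0.28 in the batches alone. Col4a4 was dim. Col4a6 fell by 0.06 ± 0.022 in males (adjusted p 0.0102) and differed by -0.04 ± 0.021 in females (adjusted p 0.105).

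Laminins, the cross-shaped trimers of basement membranes, divided by chain. Lamc1, the γ1 chain shared by most laminins, went from a median of 6.74 (6.15 to 7.21) to 6.32 (5.85 to 7.00) in females, and in males from 6.75 (6.10 to 7.21) to 6.29 (5.66 to 6.92). Lama2, the α2 chain, went from 6.69 (6.24 to 7.09) to 6.30 (5.82 to 6.82) in females, and in males from 6.69 (6.20 to 7.19) to 6.30 (5.91 to 6.78). Both overlapped between ages, and at least 96.4% of older mice lay below the younger median. Lamc1 fell by 0.40 ± 0.029 and 0.42 ± 0.031, and Lama2 by 0.37 ± 0.025 and 0.36 ± 0.026 (largest adjusted p 3.86e-34). Lama4, the α4 chain of vessel basement membranes, rose by 0.16 ± 0.032 in females and 0.12 ± 0.034 in males (adjusted p 2.47e-06 and 0.000965). Its medians moved from 3.96 (3.50 to 4.77) to 4.15 (3.67 to 5.03) in females, and in males from 3.92 (3.47 to 4.69) to 4.08 (3.51 to 4.62), with wide overlap. Over the 7 laminins 4 fell and 1 rose in females, and 3 fell and 1 rose in males. The shares of all genes were 24.2% and 22.1% in females, and 24% and 22.3% in males. The 1 that rose, Lama4, was dim.

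The remaining collagens moved little. None of the 6 fibril-associated chains changed by 1.25-fold: Col12a1 rose by 0.14 ± 0.032 in females (adjusted p 8.22e-05) and differed by 0.08 ± 0.034 in males (adjusted p 0.0513). Among the 4 transmembrane, multiplexin or other chains 3 fell in each sex, where 24.2% and 24% of all genes fell. These 3 chains fell by 0.06 to 0.15 on the log2 scale. One of them, Col18a1, the multiplexin whose cleaved end is endostatin, was read at high signal, between 10.9 and 12.1 in every mouse. It fell by 0.15 ± 0.020 in females and 0.06 ± 0.021 in males. The falls differed by 0.09 ± 0.028 (adjusted p 0.0288), and by 0.01 to 0.16 in the batches alone.

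The inhibitors did not share a direction. Timp3, the inhibitor that binds to the matrix, rose from a median of 5.92 (5.27 to 6.80) to 6.25 (5.65 to 6.77) in females, and in males from 5.89 (5.10 to 6.65) to 6.15 (5.24 to 6.91). Timp2 fell from 5.55 (4.59 to 6.21) to 5.37 (4.62 to 6.03) in females, and in males from 5.48 (4.81 to 6.02) to 5.34 (4.57 to 6.13). Timp1, the inhibitor usually induced in injured liver, had medians of 4.63 (3.92 to 5.64) and 4.60 (3.92 to 5.63) in females and of 4.62 (4.15 to 5.24) and 4.61 (4.20 to 5.22) in males. The ages overlapped widely for all 3. The difference was 0.28 ± 0.038 in females and 0.28 ± 0.040 in males for Timp3 (adjusted p 1.38e-11 and 1.45e-10), and -0.21 ± 0.042 and -0.21 ± 0.044 for Timp2 (adjusted p 3.66e-06 and 1.40e-05). For Timp1, which was dim, it was 0.06 ± 0.032 (adjusted p 0.0934) and 0.03 ± 0.034 (adjusted p 0.446), which did not pass. In the batches taken alone the fall of Timp2 lay between -0.31 and -0.05 (females) and between -0.27 and -0.10 (males), and the rise of Timp3 between 0.22 and 0.41 and between 0.13 and 0.45.

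No protease gene changed by 1.25-fold. The counts below stand beside 24.2% lower and 22.1% higher over all genes in females, and 24% and 22.3% in males. Near those shares were the falls of membrane-type MMPs, the falls of secreted MMPs in males and their rises in females. Among the 4 membrane-type MMPs only Mmp14, the cell surface collagenase, fell, by 0.16 ± 0.033 in females and 0.20 ± 0.035 in males (adjusted p 1.23e-05 and 1.34e-07). Of the 7 secreted MMPs 3 fell and 2 rose in females and 2 fell and 0 rose in males, all by at most 0.17 on the log2 scale. Mmp7, known as matrilysin, rose by 0.11 ± 0.021 in females (adjusted p 4.43e-06), and the neutrophil collagenase Mmp8 rose by 0.05 ± 0.023 (adjusted p 0.0455). Of the 8 ADAMTS proteases 4 fell in each sex. Adamts12 went from a median of 4.13 (3.62 to 4.69) to 3.89 (3.52 to 4.53) in females, and in males from 4.20 (3.85 to 4.86) to 3.87 (3.48 to 4.28). Adamts7 went from 5.52 (5.04 to 6.25) to 5.20 (4.68 to 5.83) in females, and in males from 5.38 (4.82 to 6.16) to 5.16 (4.76 to 5.59). These falls were -0.26 ± 0.025 and -0.31 ± 0.026 for Adamts12, and -0.32 ± 0.031 and -0.25 ± 0.033 for Adamts7, which cleaves the cartilage oligomeric matrix protein. Adamtsl1, a protease-free relative, rose by 0.29 ± 0.030 in females and 0.17 ± 0.032 in males. Mmp8, Adamts12 and Adamtsl1 were dim.

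Genes that work with these proteins were counted from lists chosen with earlier results of these data known. Over all genes 24.2% fell and 22.1% rose in females, and 24% fell and 22.3% rose in males. Among 30 matrix glycoproteins and proteoglycans 17 fell and 4 rose in females, and 18 fell and 4 rose in males, with medians of -0.07 and -0.10. Sparc, a collagen-binding glycoprotein, lay lowest at -1.12 ± 0.040 and -1.26 ± 0.043, and the fibril-binding proteoglycan Lum at -0.83 and -0.88. Of 24 genes of collagen folding and crosslinking 12 fell and 6 rose in females, and 11 fell and 4 rose in males. Serpinh1, the collagen chaperone, fell by 0.57 ± 0.045 and 0.60 ± 0.048, and the crosslinking oxidase Loxl1 by 0.43 and 0.37, while P4ha2, a proline hydroxylase subunit, rose by 0.66 ± 0.044 and 0.58 ± 0.047.

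Receptors, signals and other proteases were set beside the same shares, 24.2% lower and 22.1% higher in females and 24% and 22.3% in males. Falls among receptors in females and among other proteolysis genes in both sexes were near the share of all genes. Among 23 matrix receptors 6 fell and 2 rose in females, and 10 fell and 2 rose in males; the integrin chain Itga8 fell by 0.54 and 0.50. Of 22 genes of TGFβ and PDGF signalling 7 fell and 8 rose in females, and 6 fell and 6 rose in males. The largest changes among them went both ways. Ccn2, a target of that signalling, stood at 0.35 ± 0.075 and 0.39 ± 0.080, Bambi at -0.29 ± 0.027 and -0.25 ± 0.028. Smad7 stood at 0.17 ± 0.042 and 0.27 ± 0.045. Of 17 genes of other matrix proteolysis 5 fell and 3 rose in each sex. Reck, a membrane inhibitor of MMPs, fell by 0.38 and 0.40, and the convertase Pcsk6 rose by 0.48 and 0.55.

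Markers of cells that could carry these transcripts were counted beside the shares of all genes, 24.2% lower and 22.1% higher in females and 24% and 22.3% in males. Of 16 stellate cell markers 5 fell and 4 rose in females, and 4 fell and 2 rose in males; Tcf21 fell by 0.47 and 0.54 and Rgs5 rose by 0.55 and 0.45. The average of the stellate markers was 6.18 (5.99 to 6.44) and 6.19 (5.95 to 6.41) in females at 5 and 12 weeks, and 6.18 (5.93 to 6.34) and 6.17 (5.91 to 6.37) in males. That average joins markers that rose and markers that fell. Of 11 portal fibroblast and smooth muscle markers 4 fell and 0 rose in females, and 5 fell and 1 rose in males, with averages of 5.52 (5.26 to 5.76) and 5.44 (5.25 to 5.65), and 5.51 (5.29 to 5.69) and 5.404 (5.19 to 5.67). Of 19 endothelial markers 8 fell and 4 rose, and 7 fell and 4 rose. Macrophage markers fell in 10 and 14 of 16 and rose in 0, and their average went from 8.27 (7.87 to 8.97) to 8.11 (7.57 to 8.68) in females, and in males from 8.18 (7.86 to 8.68) to 7.94 (7.45 to 8.61).

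Smaller marker lists went both ways. Over all genes 24.2% fell and 22.1% rose in females, and 24% fell and 22.3% rose in males. Only 4 of 18 listed cell cycle genes were measured. They fell in 3 of 4 in each sex and rose in 0 and 1, with Cdk1 at -1.01 and -0.80. Cholangiocyte markers fell in 4 of 6 in each sex and rose in 1 and 0. Lymphocyte markers fell in 2 and 6 of 9 and rose in 0. Neutrophil markers fell in 2 and 5 of 7 and rose in 1 and 0. The falls of lymphocyte and neutrophil markers in females were near the share of all genes. Hepatocyte markers fell in 5 of 10 in each sex and rose in 2 and 1, and of 5 skeletal muscle markers 1 fell in females and 0 in males. Only 3 of 9 listed adipocyte markers were measured, and these rose in both sexes: Pparg by 0.50 and 0.52, Retn by 0.46 and 0.24, and Fabp4 by 0.20 and 0.21. The part of any cell type in the age differences was not tested, and detection calls were not used, so it is not known which markers were above background.

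Males and females differed in fewer of these genes. At 5 weeks 9 of 60 were lower and 4 higher in males (14.4% and 10.5% of all genes), and at 12 weeks 6 were lower and 1 higher (9.08% and 8.97%). The shares called lower were close to those of all genes. Mmp14 stood first at both ages. It ran from 6.88 to 8.07 (median 7.44) in females and from 6.66 to 7.77 (median 7.21) in males at 5 weeks, and from 6.35 to 7.78 (median 7.29) and from 6.40 to 7.66 (median 7.00) at 12 weeks. The sexes overlapped widely, with a difference of -0.20 ± 0.033 at 5 weeks (adjusted p 2.70e-07) and -0.24 ± 0.034 at 12 weeks (adjusted p 4.63e-10). In the batches alone it ranged from -0.35 to -0.06 at 5 weeks and from -0.38 to -0.21 at 12 weeks.

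The vessel-associated multiplexin Col15a1 was lower in males by 0.14 ± 0.034 and 0.20 ± 0.034 (adjusted p 0.000376 and 2.21e-07). Its medians were 6.47 (5.78 to 7.01) in females and 6.30 (5.58 to 7.13) in males at 5 weeks, and 6.35 (5.87 to 7.08) and 6.19 (5.37 to 6.81) at 12 weeks. Col14a1, a fibril-associated chain, was lower in males by 0.15 ± 0.047 and 0.18 ± 0.047, and Lama1 by 0.11 ± 0.028 and 0.12 ± 0.028. Col2a1 was higher in males at both ages, by 0.10 ± 0.022 and 0.08 ± 0.023. At 5 weeks Col5a3 was higher in males by 0.16 ± 0.036, and at 12 weeks Col5a1 was lower in males by 0.14 ± 0.032 and Adamtsl1 by 0.14 ± 0.031. None of the 3 TIMPs passed the test between the sexes. The difference of age effects between the sexes was called for 3 of 60 genes (Col27a1, Col4a4 and Col18a1), against 8.56% of all genes. Macrophage markers were lower in males in 6 of 16 at 5 weeks and in 13 of 16 at 12 weeks. Endothelial markers were lower in 11 and 4 of 19. Of all genes 14.4% and 9.08% were lower. The part of these cells in the sex differences was not tested.

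Within an age, expression was set against each mouse's own measurements. A slope is the log2 difference for 1 SD of a trait, with sex and batch as covariates. At 5 weeks, slopes on total cholesterol were negative for 16 genes and positive for 3 (7.84% and 10.2% of all genes), and those on body fat percent were negative for 13 and positive for 2 (5.52% and 8.25%). Triglycerides gave 9 and 2 (5.39% and 9.16%), glucose 6 and 1 (3.61% and 4.51%), insulin 2 and 2 (1.43% and 1.02%), and the liver fat fraction 0 and 2 (2.54% and 3.06%). Body weight, a trait added after the data were seen, gave 18 negative and 2 positive slopes (9.87% and 11.6%).

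At 5 weeks the steepest slopes were those of Col4a2, Col5a1, Col6a3 and Col5a3. Mice with more body fat had less Col4a2 (-0.12 ± 0.014 per SD, adjusted p 7.11e-14), Col5a1 (-0.10 ± 0.017) and Col6a3 (-0.10 ± 0.015). Those slopes lay between -0.17 and -0.07, between -0.16 and -0.04, and between -0.19 and -0.02 in the batches alone. Col5a3 had positive slopes on cholesterol (0.13 ± 0.017, adjusted p 1.72e-11), triglycerides (0.11 ± 0.017), insulin (0.09 ± 0.018) and liver fat (0.09 ± 0.018), and on body weight (0.14 ± 0.016, adjusted p 9.80e-14). Adamts7 had a slope of -0.09 ± 0.016 on cholesterol, and Timp3 one of 0.07 ± 0.020 on glucose. Col15a1, which fell with age by 0.09 ± 0.033 in females and 0.15 ± 0.036 in males, had a positive slope on insulin (0.07 ± 0.017, adjusted p 0.00871).

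Body weight correlated with these traits at 5 weeks: r was 0.656 for cholesterol, 0.633 for body fat, 0.517 for triglycerides, 0.39 for glucose, 0.371 for insulin and 0.157 for liver fat (n = 218; given as a description). With body weight as a further covariate, chosen after the data were seen, the calls at 5 weeks went from 19 to 2 genes for cholesterol, from 15 to 3 for body fat, from 11 to 1 for triglycerides, from 7 to 0 for glucose and from 4 to 1 for insulin. The slope of Col4a2 on body fat was then -0.07 and that of Col5a1 on cholesterol -0.03. The slope of Col5a3 on cholesterol was 0.07 and on liver fat 0.07.

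At 12 weeks most called slopes on liver fat, insulin and cholesterol were positive. Liver fat slopes were positive for 20 genes and negative for 6 (13% of all genes each way). Insulin gave 15 positive and 1 negative (13.4% and 14.1%), and cholesterol 12 and 1 (6.07% and 7.5%). Triglycerides gave 5 positive and 8 negative slopes (10.7% and 8.93%, near the shares of all genes), body fat 3 and 0 (3.88% and 2.86%), glucose 1 and 1 (7.41% and 5.5%), and body weight 7 and 1 (5.8% and 5.05%). Glucose measured at 5 weeks in the mice killed at 12 weeks gave 0 and 0 (4.04% and 2.62%; n = 209), and 5-week insulin 0 positive and 1 negative (1.05% and 2.15%). With body weight as a covariate the counts for cholesterol went from 13 to 6. Across all alternatives run, body weight included, the count lay between 21 and 25 for liver fat, where 26 were called as planned, and between 13 and 16 for insulin.

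**Figure D3:**
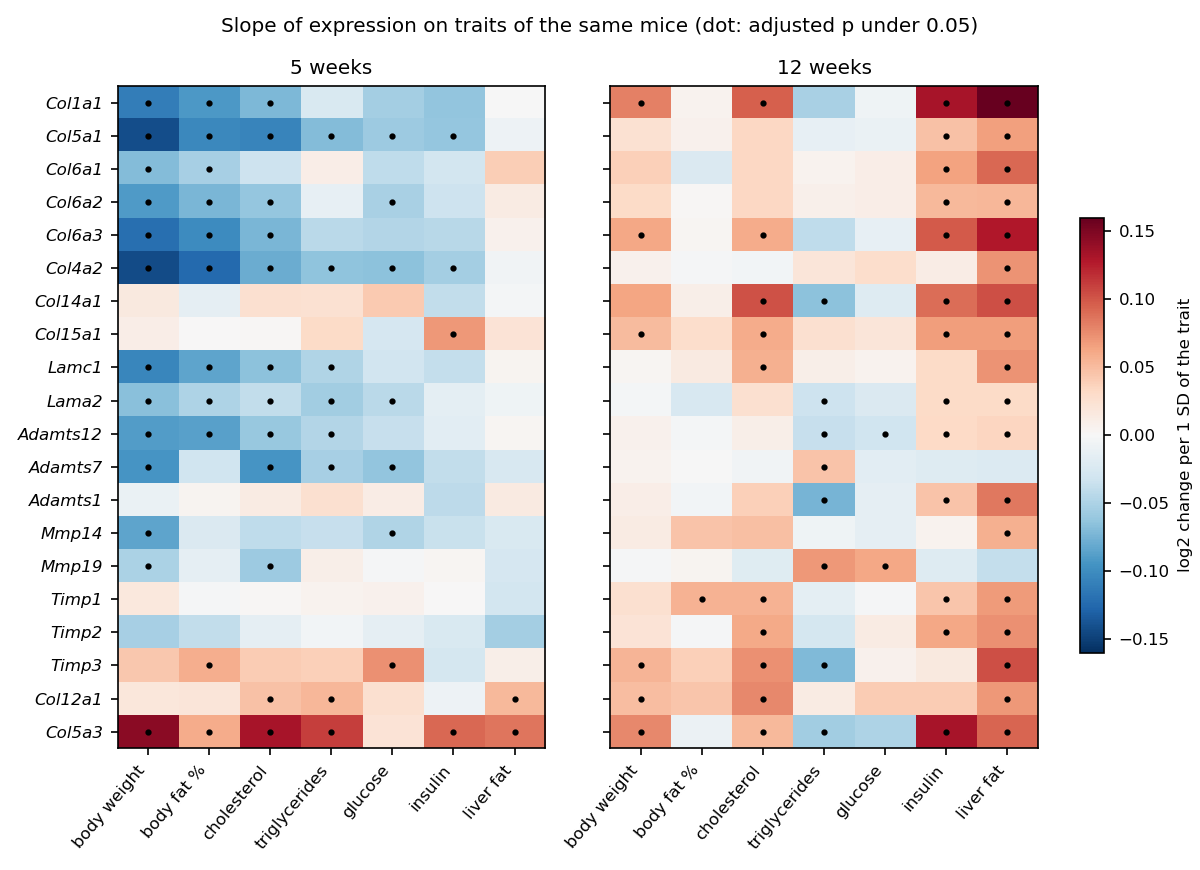
Slopes of 20 genes on 7 traits of the same mice at 5 weeks (left) and 12 weeks (right), coloured by the log2 difference per 1 SD of the trait (blue negative, red positive); a dot marks an adjusted p under 0.05. Col1a1 on liver fat at 12 weeks is the darkest red (0.16), and Col4a2 and Col5a1 on body weight at 5 weeks are the darkest blue (-0.14 each).

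Col1a1 carried the steepest of the 12-week slopes on liver fat. Mice with 1 SD more liver fat had 0.16 ± 0.022 more Col1a1 (adjusted p 4.48e-11), 0.18 in females and 0.16 in males taken alone, and 0.10 to 0.21 in the batches alone. Col6a3 followed at 0.13 ± 0.015 (adjusted p 7.74e-13), then Col14a1 at 0.10 ± 0.024 and Timp3 at 0.10 ± 0.017. All 3 inhibitors had positive slopes on liver fat, with 0.07 ± 0.017 for Timp1 and 0.07 ± 0.021 for Timp2. Negative slopes were small: Mmp10, known as stromelysin 2, had -0.04 ± 0.010, Col2a1 -0.04 ± 0.012 and Col18a1 -0.03 ± 0.010. At 5 weeks Col1a1 and Col6a3 had liver fat slopes of -0.0001 ± 0.025 and 0.0064 ± 0.017, which were not called.

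**Figure D4:**
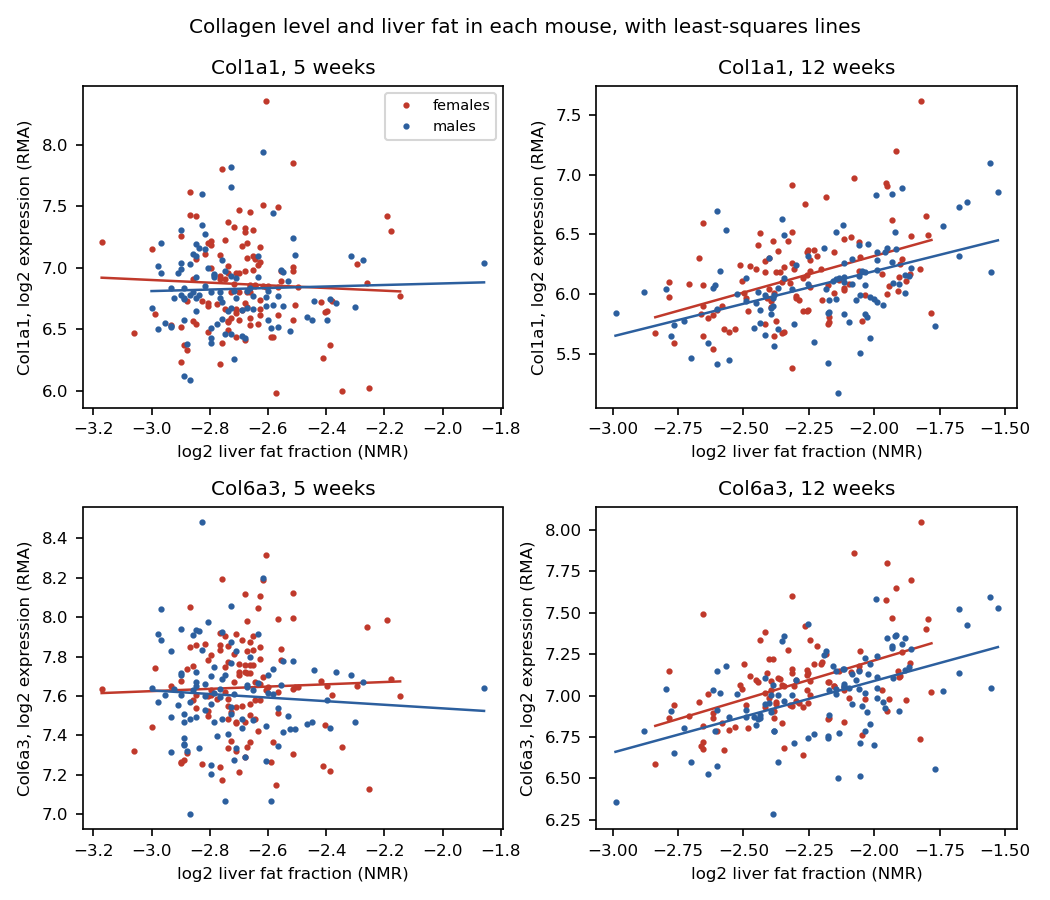
Log2 expression of Col1a1 (top) and Col6a3 (bottom) against log2 of the liver fat fraction in each mouse at 5 weeks (left) and 12 weeks (right), females in red and males in blue, with a least-squares line per sex. The lines are near flat at 5 weeks and rise at 12 weeks, where the slope per SD was 0.16 for Col1a1 and 0.13 for Col6a3.

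Insulin at 12 weeks behaved like liver fat for the same collagens. Slopes were 0.13 ± 0.023 for Col1a1 (adjusted p 4.58e-07), 0.13 ± 0.016 for Col5a3 (adjusted p 1.14e-12) and 0.10 ± 0.017 for Col6a3 (adjusted p 3.09e-07). Lama5, which was dim, was the single member that was lower with more insulin, by 0.04 ± 0.011 per SD. With cholesterol, Col14a1 had a slope of 0.10 ± 0.025, Col1a1 0.10 ± 0.024 and Col12a1 0.08 ± 0.016. Triglycerides went the other way for Timp3 (-0.07 ± 0.018), Adamts1 (-0.07 ± 0.018) and Col14a1 (-0.07 ± 0.025), while Mmp19 had a positive slope of 0.07 ± 0.021. Mmp19 was also the member with a positive slope on 12-week glucose (0.06 ± 0.021, adjusted p 0.0285), and it lay at -0.001 in batch 4 alone and at 0.013 in batch 1 alone.

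Slopes at the 2 ages were compared directly. They differed for 15 genes for cholesterol (9.19% of all genes), 12 for insulin (13.2%), 12 for triglycerides (16.1%), 11 for liver fat (12.6%), 7 for body fat (3.65%), 2 for glucose (6.58%) and 15 for body weight (11.7%). For Col1a1 the 12-week slope exceeded the 5-week slope by 0.20 ± 0.033 for insulin (adjusted p 2.49e-07), by 0.17 ± 0.033 for liver fat (adjusted p 2.32e-05), by 0.17 ± 0.034 for cholesterol (adjusted p 8.69e-05) and by 0.20 ± 0.034 for body weight (adjusted p 2.43e-06). The Col1a1 slope went from -0.06 to 0.13 for insulin, from -0.07 to 0.10 for cholesterol and from -0.11 to 0.08 for body weight. For Col6a3 the excess was 0.15 ± 0.023 for insulin and 0.13 ± 0.023 for liver fat. Timp2 moved from -0.05 to 0.07 per SD of liver fat (difference 0.13 ± 0.029, adjusted p 0.000245). Col5a3 went against that order: its slope on triglycerides turned from 0.11 to -0.06 (difference -0.17 ± 0.025, adjusted p 2.53e-09). The differences between ages were not refitted with body weight as a covariate, so their dependence on body weight was not tested.

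Cell markers were counted for the same traits, beside 13% of all genes each way for 12-week liver fat and 13.4% positive and 14.1% negative for 12-week insulin. With 12-week liver fat, 8 of 19 endothelial markers had positive and 0 negative slopes, 3 of 16 stellate positive and 1 negative, 4 of 16 macrophage positive and 1 negative, and 3 of 11 portal fibroblast and smooth muscle markers positive and 0 negative. With 12-week insulin the macrophage markers gave 7 and 1, the neutrophil markers 5 of 7 and 0, and the stellate markers 2 and 1. Among the 30 glycoproteins and proteoglycans 11 had positive and 2 negative slopes on 12-week liver fat, and of the 24 folding and crosslinking genes 7 and 0. With body weight at 5 weeks 13 of those 30 glycoproteins and proteoglycans had negative slopes and 0 positive (9.87% and 11.6% of all genes). The part of cell types in the slopes was not tested.

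Genes whose products work together were correlated over mice after the group and batch means were removed. Of 35 pairs listed, 11 were measured and 8 were called by permutation (100000 draws, two-sided, adjusted over the 11). Pairs of other genes were not correlated, so the share called among them is not known. Body weight and the other traits were not removed. The 3 collagen VI chains went together: r was 0.749 for Col6a1 with Col6a2 (rho 0.717), 0.709 for Col6a1 with Col6a3 (rho 0.682) and 0.749 for Col6a2 with Col6a3 (rho 0.713), each with a permutation p of 1e-05 for r and rho (adjusted 2.2e-05), the smallest the draws can give (n = 433). Without the 2 mice farthest from the median of the first gene r was 0.735, 0.698 and 0.738. In the 4 groups r ranged from 0.621 to 0.84 over these pairs, and in the 4 batches from 0.595 to 0.799. Col6a1 and Col6a2 lie on chromosome 10 and Col6a3 on chromosome 1.

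Protease and inhibitor pairs were looser. Mmp8, Mmp9, Timp1, Col9a1 and Col9a2 were dim, so a low r in their pairs is less certain. Mmp14, which with Timp2 activates a gelatinase at the cell surface, had an r of 0.485 with Timp2 (rho 0.474, permutation p 1e-05 for both, adjusted 2.2e-05), 0.48 without the 2 farthest mice, 0.408 to 0.604 in the groups and 0.383 to 0.561 in the batches. Timp2 with Timp3 gave 0.339 (rho 0.326, permutation p 1e-05 for both, adjusted 2.2e-05), or 0.342 without the 2 farthest mice, with 0.143 to 0.512 in the batches. Timp1 with Timp2 gave 0.152 (rho 0.156, permutation p 0.00157 and 0.0012, adjusted 0.00288 and 0.0022), 0.162 without the 2 farthest mice and 0.119 to 0.221 in the batches. Weaker still were Mmp9 with Timp1 (r 0.129, rho 0.103, permutation p 0.00724 and 0.0332, adjusted 0.0114 and 0.0457), at 0.109 without the 2 farthest mice and -0.0636 in batch 4, and Mmp8 with Mmp9 (r 0.121, rho 0.12, permutation p 0.0115 and 0.0123, adjusted 0.0158 and 0.0194), at 0.114 and from 0.0512 to 0.173 in the batches. The pairs Col9a1 with Col9a2 (r -0.0375, rho -0.0315), Col15a1 with Col18a1 (r 0.03, rho -0.00295) and Lamb2 with Lamc1 (r 0.0415, rho 0.059) were not called, with permutation p of 0.436, 0.531 and 0.388 for r (adjusted 0.479, 0.531 and 0.474) and 0.514, 0.953 and 0.216 for rho (adjusted 0.565, 0.953 and 0.265).

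**Figure D5:**
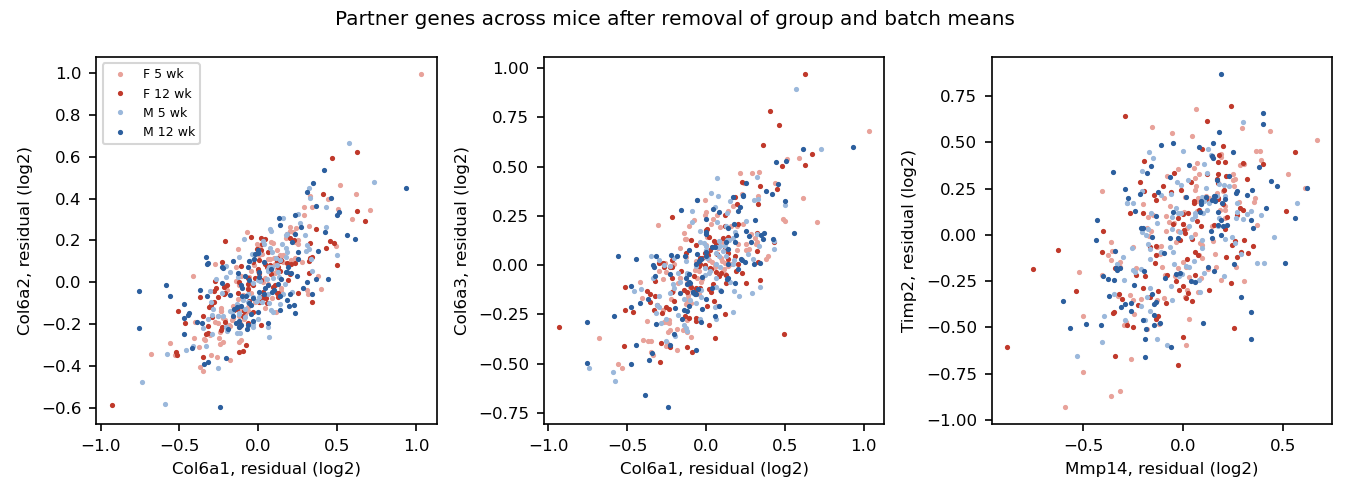
Residual log2 expression, after group and batch means were removed, of Col6a2 against Col6a1 (left, r 0.749), Col6a3 against Col6a1 (middle, r 0.709) and Timp2 against Mmp14 (right, r 0.485) in each mouse, coloured by sex and age. The collagen VI pairs form narrow clouds and Mmp14 with Timp2 a wider one.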

How the data were processed

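The authors deposited RMA values on the log2 scale, 1 per probe set and array, per the submitters' processing notes; RMA subtracts background, brings all arrays to 1 distribution and summarises the probes of a set, and no version was named. Of 15397 probe sets 13516 had 1 gene symbol, 162 several and 1719 none given. Where a gene had several, that with the highest mean was kept (13379 genes, 134 with several). Each of the 60 genes studied had 1 probe set, and all 60 symbols matched the RefSeq table. No value was missing (0), and arrays correlated at 0.9721 to 0.9956, so none was a copy. The number of arrays limits the precision. The members and all lists were chosen with earlier results of these data known.

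Groups came from the labels. Values were tested with limma 3.58.1 (lmFit and eBayes) in R 4.3.3, with group and batch as terms, and the Benjamini-Hochberg adjustment ran over all 13379 genes. The 4 large batches, numbered 1 to 4, had 99, 138, 110 and 86 arrays with every group in each; 2 further batches of 1 array stayed out of correlations. The array names also hold 25 plate codes. Traits came from the labels: glucose, insulin, total cholesterol, triglycerides and liver fat fraction on the log2 scale, and body fat percent as given, each scaled within sex and age. A mouse without a trait value was left out of that fit (1 for body weight, 1 for liver fat, 7 for earlier glucose). Values with ± are SE in fits and SD for body weight. The fits were tested on simulated data.

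Names were taken from the 10 called with the largest change each way per age or sex comparison and the 10 largest for the interaction. Other sources were the 3 largest each way per slope, all TIMPs, genes of called pairs and the 3 largest called per list. Not every gene of these sources was named. Members named outside this rule were chosen after their values were seen. Alternatives were no batch term, plates in place of batches, arrays centred on their median, a trend and robust prior, dim genes left out, the mean of probe sets, each batch left out or alone, each sex alone, ranked traits and the 8 arrays of doubtful sex left out. Alternatives added after the data were seen were body weight as a covariate or trait, and 2 arrays with muscle markers left out.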

Additional observations from a re-analysis of the deposited data

Results flagged for a closer look

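Age differences that themselves differed between the sexes were found for Col27a1 (-0.228, males minus females), Col4a4 (0.099) and Col18a1 (0.088), each by an interaction term in limma. Without batch 4 only 1 interaction was called.

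Slopes on a trait that differed between the ages, given as the 12-week minus the 5-week slope in log2 units per SD, are given here for the 3 largest called each way per trait. For insulin the differences were 0.204 for Col1a1, 0.151 for Col6a3 and 0.146 for Col14a1. For liver fat they were 0.17 for Col1a1, 0.133 for Timp2 and 0.129 for Col6a3. For total cholesterol they were 0.17 for Col1a1, 0.14 for Col5a1, 0.137 for Col6a3 and -0.088 for Col5a3. For body weight they were 0.196 for Col1a1, 0.189 for Col6a3, 0.172 for Col5a1 and -0.074 for Col5a3. For body fat they were 0.126 for Col4a2, 0.114 for Col5a1 and 0.106 for Col6a3. For glucose they were 0.096 for Col4a2 and 0.067 for Col6a2. Triglycerides gave both signs: 0.099 for Adamts7, 0.089 for Col4a2 and 0.067 for Col4a4, against -0.168 for Col5a3, -0.103 for Timp3 and -0.092 for Adamts1. Each difference had an adjusted p under 0.05 and its cause was not tested. The slope differences were not refitted with body weight as a covariate.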

How the results depend on the processing

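Of the 208 counts recomputed under an alternative 191 stayed within 1.5 times, and of the named genes and pairs 1388 values kept their direction and side of the threshold, 406 kept the direction but no longer passed, 1 newly passed and 20 changed sign. With body weight as a covariate the genes called at 5 weeks numbered 0 for glucose, 1 for insulin, 1 for triglycerides, 2 for cholesterol and 3 for body fat, and at 12 weeks 1 for glucose, 6 for cholesterol and 0 for insulin measured at 5 weeks. The slope of Col4a2 became 0.007 on triglycerides and 0.015 on cholesterol, and that of Col5a3 on body fat -0.042. Without a batch term 11 genes were called for 5-week glucose, and in the 12-week mice 3 for glucose and 2 for insulin measured at 5 weeks, and the age difference of Timp1 in males was -0.001. With dim genes left out, which removed 27 of the 60 before the fit, 5 rose with age in females and 2 were called for insulin measured at 5 weeks. With arrays centred on their median 2 genes were higher in males at 12 weeks and 5 were called for body weight at 12 weeks. Without batch 4, 0 were higher in males at 12 weeks and 1 interaction was called, and without batch 3 the sex difference of Timp1 at 5 weeks was 0.003.

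In single batches these signs changed. In batch 1 the sex differences were 0.025 for Timp1 and 0.028 for Timp2 at 5 weeks and 0.076 for Timp1 at 12 weeks, and the slopes were 0.023 for Col5a1 on 5-week glucose and -0.012 for Mmp19 on 12-week triglycerides. In batch 2 the sex difference of Timp3 at 5 weeks was 0.078, and the 5-week slopes on triglycerides were 0.019 for Col5a1 and 0.02 for Col4a2 and that of Col12a1 on cholesterol -0.003. In batch 3 Adamts12 had a slope of 0.023 on 12-week glucose. In batch 4 the sex difference of Col4a4 at 5 weeks was 0.023, the slopes were -0.005 and -0.029 for Col12a1 on 5-week triglycerides and cholesterol and -0.001 for Mmp19 on 12-week glucose, and Mmp9 with Timp1 had an r of -0.064. A single batch holds fewer mice, and the cause of these sign changes was not tested. No paired analysis was possible because mouse numbers are not shared between groups. The leave-one-out of replicates does not apply to groups of this size. Signal over background is unknown, so small differences of dim genes are the least certain.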
